A study of Mus musculus with 14 samples.

Results

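The 4 long noncoding RNAs described here, Malat1, Neat1, Tug1 and Kcnq1ot1, were chosen by name as RNAs that work in the nucleus, and they are 4 of the 52459 genes in the count tables. The study sequenced E14Tg2a mouse embryonic stem cells (mESCs), an established line grown on gelatin with LIF, either as the unedited line (WT) or with the R255K change of METTL14, an arginine replaced by lysine, knocked in with CRISPR-Cas9 (R255K). METTL14 is the RNA-binding partner of METTL3 in the enzyme complex that writes N6-methyladenosine (m6A), and the R255K cells came from isolated colonies, so that genotype and clone cannot be told apart. RNA-seq was done after 0, 4 and 8 h with the transcription blocker actinomycin D at 5 µg/ml, with 1 library per genotype and time (6 libraries). m6A was mapped in untreated cells by MeRIP-seq on total RNA, in which an antibody pulls down methylated RNA fragments. It had 2 IP and 2 input libraries per genotype, from which 1 peak list per genotype was deposited.

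Malat1 is an abundant RNA of nuclear speckles, the bodies in which splicing factors collect. Neat1 is the scaffold of paraspeckles, nuclear bodies that hold RNA-binding proteins, and is transcribed beside Malat1. Tug1 is a spliced RNA with roles described in chromatin regulation, and Kcnq1ot1 is the unspliced antisense RNA of the Kcnq1 domain, made from the paternal allele and needed to silence imprinted genes around it. Malat1 and the long isoform of Neat1 end in a triple helix instead of a poly(A) tail. The RNA-seq libraries are described as mRNA libraries, and how mRNA was selected is not given in the sources used here, so the counts of these RNAs may depend on that step.

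The 4 genes lie on the minus strand of mm10. Malat1 spans 5795690 to 5802672 of chromosome 19 (6983 exonic bases, 42.5% GC) and Neat1 spans 5824708 to 5845478 of the same chromosome (20771 bases, 47.3% GC). Tug1 spans 3639785 to 3649673 of chromosome 11 (8325 exonic bases in 3 merged exons, 42.8% GC). Kcnq1ot1 was counted over 143212155 to 143296549 of chromosome 7 (84395 bases, 40.7% GC), inside and antisense to Kcnq1.

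The WT list held 8 peaks on exons of these genes and the R255K list held 7. Most m6A lies in a short context around an A followed by C, and GGAC is the core most often methylated. Below, for the peaks on which the results turn, the GGAC nearest to the summit is shown in capitals with its flanks, 5′ to 3′ on the RNA strand, from the GRCm38 reference. Where no GGAC lay within 100 bases of the summit, the nearest AGAC, AAAC or GAAC is in capitals instead. A match is a description of the sequence and not a mapped m6A.

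Malat1, peak of both lists, chr19:5801411-5801440: agcattttgcattGGACttgagctgaggtg
Neat1, peak of both lists, chr19:5843938-5843967: gcactgtagatcgGGACcccagtgacctcg
Neat1, peak of the R255K list only, chr19:5845305-5845334: agactagattttgGGACagtggacgtgtgg
Tug1, strongest peak of both lists, chr11:3646952-3646981: aaaagactctttaAGACtgtggtgttaaaa
Tug1, distal peak of both lists, chr11:3640511-3640540: ctgacttgaatggGGACcttatggtgaatc
Tug1, peak of the WT list only, chr11:3641746-3641775: aaatcagcaaatcAGACtcagatctggtta
Kcnq1ot1, peak of the WT list only, chr7:143258581-143258610: caactgctctgaaGAACaaacttcatagcc

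The A in capitals lay 7 bases from the WT summit on Malat1, 4 bases on Neat1 and 2 bases on the distal peak of Tug1. GGAC was missing near the summit of 4 WT peaks, namely the 2 that no R255K peak overlapped, on Tug1 and Kcnq1ot1, and the 2 Tug1 peaks of highest fold enrichment. Over the whole peak, GGAC on the strand of the gene occurred 3 times in the Kcnq1ot1 peak and 0 times in the Tug1 peak of the WT list only. In the 2 Tug1 peaks of highest fold enrichment it occurred 3 times (9.47-fold) and 1 time (8.78-fold).

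The RNA-seq libraries held between 13812160 and 18813640 counts, and the 4 RNAs together made up 0.0288%, 0.0377% and 0.0255% of them in WT cells at 0, 4 and 8 h and 0.00723%, 0.0309% and 0.0230% in R255K cells. With 1 library per group no test was possible, and the 95% intervals given cover counting error only. Levels are counts scaled to a common library total (CPM), with no spike-in described in the sources used here, so a rise after actinomycin D is a rise relative to the other RNAs. All differences are R255K over WT, and shares of all genes are over genes whose level per length (FPKM, CPM per kb of exon) averaged 1 or more at 0 h, a filter that Malat1, Neat1 and Tug1 passed and Kcnq1ot1 (mean FPKM 0.0291) did not. The difference at 0 h moved with base composition. From genes under 40% GC to genes of 56% GC and over, the median log2 difference ran from −0.78 to 0.34 at 0 h, against 0.35 to 0.29 at 4 h and 0.67 to 0.62 at 8 h. All 9 embryonic stem cell markers were detected in the 6 libraries, with Pou5f1 between 865 and 1753 CPM. At 0 h, 4 of the 9 were more than 1.5-fold lower in R255K cells and 0 were higher. The lower ones were Tfcp2l1, Klf4, Esrrb and Tdgf1, at log2 differences of −1.83, −1.29, −1.11 and −0.60. The median of the 9 was −0.57, where 19.6% of all genes were lower and 20.7% higher, with a median of 0.06. The 6 fibroblast markers summed to 5.45 to 7.60 CPM in the WT and 27.3 to 34.8 CPM in the R255K libraries, of which Col1a1 was counted 9, 7 and 6 times in WT cells against 150, 207 and 226 times in R255K cells, while Postn had at most 2 counts, Dcn had 1 to 5 in WT and 1 to 9 in R255K cells, and Thy1 made up 4.65 of the 5.45 CPM in untreated WT cells. The part of what these markers show in the differences below was not tested. The 4 endoderm, 3 mesoderm and 2 ectoderm markers summed at 0 h to 19.8, 1.89 and 78.8 CPM in WT and to 17.3, 5.63 and 21.7 CPM in R255K cells. The endoderm and ectoderm sums do not stand for each member. Of the ectoderm markers, Sox1 had a log2 difference of −2.93 at 0 h and Pax6 of −0.09. Of the endoderm markers, Gata4 and Gata6 had −0.95 and −0.32, while Sox17 and Foxa2 had 0.96 and 2.53. The mesoderm markers T, Mixl1 and Mesp1 had 2.19, 1.16 and 1.03, from few counts. The edited gene, Mettl14, was counted 681, 376 and 232 times in WT cells against 299, 280 and 209 times in R255K cells, which says nothing of the edited codon.

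Per length, Malat1 was the most abundant of the 4 RNAs in each of the 6 libraries, followed by Tug1, Neat1 and Kcnq1ot1. In untreated WT cells their levels were 14.5 FPKM (13.8 to 15.2), 12.3 FPKM (11.7 to 12.9), 3.92 FPKM (3.72 to 4.13) and 0.0401 FPKM (0.0305 to 0.0517). In untreated R255K cells the same levels were 5.08, 3.28, 0.385 and 0.0182 FPKM. The counting intervals of neighbours in this order did not overlap in any library. For Neat1 the length used is that of the long isoform, 20771 bases, while a shorter transcript, Neat1-202, has 3004 spliced bases. Which isoform was counted is not known. With a shorter length the level of Neat1 per length would be higher and its place in the order could change, which the intervals do not cover.

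In untreated cells all 4 RNAs were more than 1.5-fold lower in R255K than in WT cells, a difference that 19.6% of all genes showed in the same direction. That share is over genes of every GC content, while Malat1, Tug1 and Kcnq1ot1 have 40.7 to 42.8% GC. Genes of 40 to 44% GC had a median log2 difference of −0.45 at 0 h. Kcnq1ot1 is not among the filtered genes, and its counting interval (−1.89 to −0.43) included differences under 1.5-fold. At 4 h a level more than 1.5-fold lower was seen for Neat1 and Tug1 (9.96% of all genes). At 8 h it was seen for Neat1 alone (10.6%), or for Neat1 and Tug1 with DESeq2 scaling. Higher levels by the same fold were seen for none of the 4 RNAs at 0 h (20.7% of all genes) and for Kcnq1ot1 alone at 4 h (34.4%) and at 8 h (47.7%). The last share depends on the scaling, since the median log2 difference of all genes at 8 h was 0.51 with summed counts, 0.08 with TMM and −0.09 with DESeq2 scaling.

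**Figure D1:**
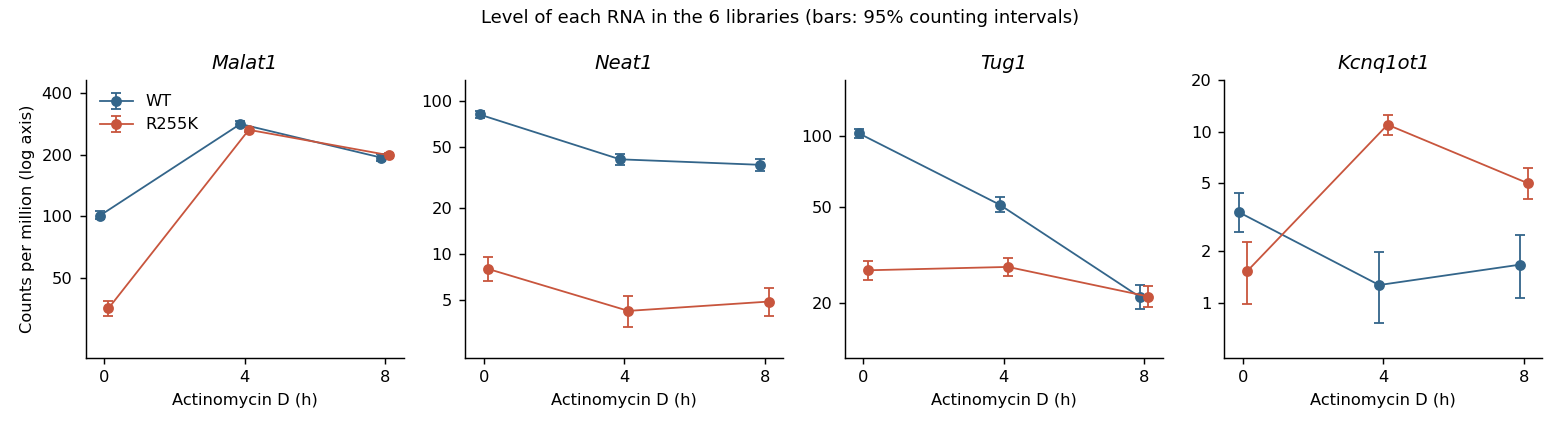
Level of each RNA in CPM (log axis) after 0, 4 and 8 h of actinomycin D in WT (blue) and R255K (red) cells, with 1 library per point and bars for the 95% counting interval. Neat1 stays lower in R255K cells at all times, Malat1 and Tug1 start lower and reach the WT level by 8 h on this scale (but not with TMM or DESeq2 scaling), and Kcnq1ot1 crosses from 1.53 to 11.0 CPM in R255K cells while it falls in WT cells.

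Neat1 was the RNA with the largest difference. At 0, 4 and 8 h it was counted 1419, 622 and 527 times in WT cells (81.4, 41.5 and 38.2 CPM) against 125, 79 and 92 times in R255K cells (7.99, 4.25 and 4.89 CPM). The lowest WT library was thus well above the highest R255K library, and no other of the 4 RNAs separated the genotypes in this way (8.66% of all genes did, with WT higher). The log2 difference was −3.35 (−3.62 to −3.08) at 0 h, −3.29 (−3.65 to −2.95) at 4 h and −2.96 (−3.30 to −2.64) at 8 h. These values correspond to levels 10.2-fold, 9.77-fold and 7.80-fold lower in R255K cells. Of 11847 genes only 16 had a lower value at 0 h, and only 11 of 11869 genes, Neat1 included, were at or below −2.96 at all 3 times. A difference of more than 1.5-fold at all 3 times was seen in 3.97% of all genes and, among the 4 RNAs, in Neat1 alone.

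Genes within 2 percentage points of the GC content of Neat1 had a median log2 difference of 0.02 at 0 h, and 4 of these 2482 genes were lower than Neat1. Of its expressed neighbours within 250 kb, Malat1 was more than 1.5-fold lower at 0 h (−1.51), and the 23 others had log2 differences between −0.35 and 0.68. Frmd8, a FERM domain protein gene that lies 4224 bases upstream of Neat1, was counted 1221, 746 and 399 times in WT cells against 1549, 1532 and 1486 times in R255K cells.

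Malat1 was lower in R255K cells before the drug was added, and the difference was small afterwards when libraries were scaled by their summed counts. It was counted 1765, 4235 and 2681 times in WT cells against 555, 4932 and 3735 times in R255K cells, or 101, 283 and 194 CPM against 35.5, 265 and 199 CPM. The R255K library at 0 h was the lowest of the 6, and at 4 and 8 h the genotypes lay close together. The log2 difference was −1.51 (−1.65 to −1.37) at 0 h, −0.09 (−0.15 to −0.03) at 4 h and 0.03 (−0.04 to 0.10) at 8 h, where TMM and DESeq2 scaling gave −0.40 and −0.57. Genes of similar GC content had a median of −0.39 at 0 h, and 107 of 1779 were lower than Malat1. Its 17 neighbours other than Neat1 had log2 differences from −0.35 to 1.05 at 0 h.

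The share of Malat1 rose under actinomycin D in both genotypes. From 0 to 4 h it rose 2.79-fold in WT cells, more than in all but 0.390% of genes, and 7.47-fold in R255K cells, more than in all but 0.0339%. At 8 h it was 1.92-fold above its starting level in WT cells and 5.60-fold in R255K cells. A rise of more than 1.5-fold at 8 h was seen in 18.8% of all genes in WT and 7.29% in R255K cells. From 4 to 8 h Malat1 fell to 68.7% of its level in WT and to 74.9% in R255K cells, where the median gene changed by −0.38 and −0.11 on the log2 scale. Since its share did not fall over the whole course, it has no half-life by the measure used here.

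Tug1 also began lower in R255K cells and met the WT level at 8 h with summed-count scaling, but on another course. It was counted 1783, 770 and 292 times in WT cells (102, 51.4 and 21.1 CPM) against 427, 525 and 399 times in R255K cells (27.3, 28.2 and 21.2 CPM). The WT level fell at each step and the R255K level stayed near its start, so that the ranges of the genotypes overlapped at the low end. The log2 difference was −1.91 (−2.06 to −1.75) at 0 h, −0.86 (−1.03 to −0.70) at 4 h and 0.00 (−0.22 to 0.23) at 8 h, where TMM and DESeq2 scaling gave −0.43 and −0.60. Genes of similar GC content had a median of −0.36 at 0 h, with 36 of 1848 below Tug1. Chromosome 11, which carries Tug1, had a median of 0.58 over 982 genes, and none of the 6 neighbours was lower than −0.06. Morc2a, a chromatin ATPase gene that starts from the same region on the opposite strand, had a log2 difference of 0.39 at 0 h, and 180 of its exonic bases overlap Tug1. Reads in that overlap cannot be assigned to a strand without knowing the counting setting.

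**Figure D2:**
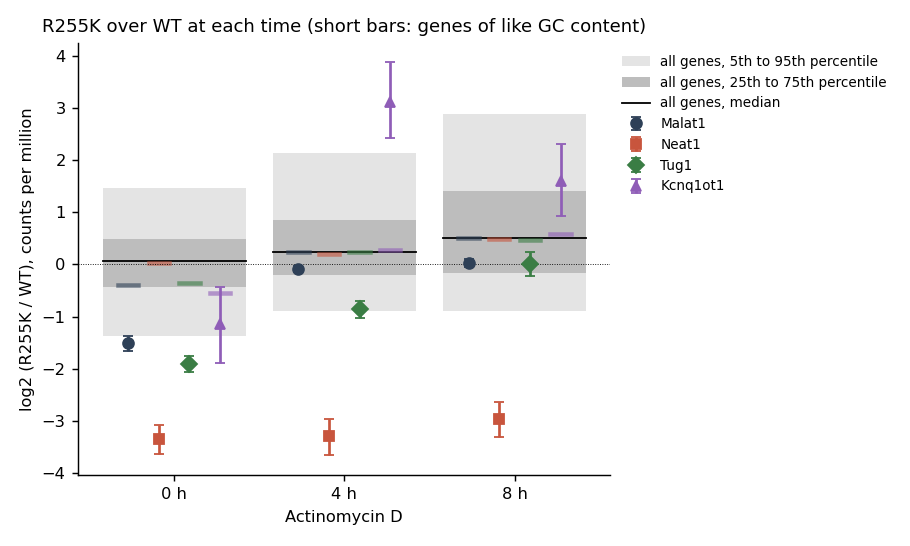
Log2 difference (R255K over WT, CPM) of the 4 RNAs at 0, 4 and 8 h with 95% counting intervals, over the 5th to 95th (light grey) and 25th to 75th (dark grey) percentiles and the median of all genes, with short coloured bars for the median of genes of similar GC content. Neat1 lies below the light grey band at all times, Malat1 and Tug1 only at 0 h, and Kcnq1ot1 lies above it at 4 h.

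Kcnq1ot1 was scarcely detected, and its difference turned direction. It was counted 59, 19 and 23 times in WT cells (3.39, 1.27 and 1.67 CPM) against 24, 204 and 94 times in R255K cells (1.53, 11.0 and 5.00 CPM). The R255K libraries at 4 and 8 h were the highest, and the WT libraries at 4 and 8 h were near the R255K library at 0 h. The log2 difference was −1.14 (−1.89 to −0.43) at 0 h, 3.11 (2.43 to 3.87) at 4 h and 1.59 (0.92 to 2.31) at 8 h. The value at 0 h lay among those of genes of similar GC content (median −0.55), of which 279 of 1321 were lower. At 4 h, 1302 of 1309 such genes were lower than Kcnq1ot1.

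From 0 to 4 h Kcnq1ot1 fell to 37.5% of its level in WT cells and rose 7.15-fold in R255K cells, a rise exceeded by 0.0509% of all genes. Its counts come from the listed interval of 84395 bases, while its GENCODE transcript has 93092 bases. Within the interval 5 other annotated genes overlap Kcnq1ot1. Kcnq1, which shares 121 exonic bases with it on the other strand, was counted 5, 7 and 1 times in WT cells and not at all in R255K cells, and the other overlapping genes had 0 counts in all libraries.

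Retention, the level at 8 h over that at 0 h, was more than 1.5-fold higher in R255K than in WT cells for Malat1, Tug1 and Kcnq1ot1, and the same held for 44.9% of all genes. The log2 difference in retention was 1.55 (1.39 to 1.70) for Malat1, 1.91 (1.64 to 2.18) for Tug1 and 2.73 (1.78 to 3.68) for Kcnq1ot1. For Neat1 it was 0.38 (−0.03 to 0.80), or 0.00 with TMM and −0.11 with DESeq2 scaling, and the median over all genes was 0.43. Genes of similar GC content had medians of 0.87 for Malat1, 0.81 for Tug1 and 1.18 for Kcnq1ot1, and 539 of 1754, 372 of 1821 and 190 of 1297 of them exceeded the RNA in question. Each of these values uses the 0 h libraries of both genotypes.

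A half-life in both genotypes could be computed only for Neat1 and Tug1. That of Neat1 was 5.27 h (4.73 to 5.94) in WT and 6.32 h (4.49 to 10.7) in R255K cells, a ratio of 1.20 (0.785 to 1.83) that TMM and DESeq2 scaling turned to 0.897 and 0.858. The counting intervals of these half-lives overlapped, and with 1 library per genotype and time a difference in decay was not tested. From 4 to 8 h Neat1 changed little, by a log2 of −0.12 (−0.29 to 0.05) in WT and 0.20 (−0.25 to 0.66) in R255K cells. The half-life of Tug1 was 3.75 h (3.48 to 4.07) in WT and 59.8 h in R255K cells. In R255K cells the interval of its decay rate includes 0 (−0.0100 to 0.0332 per h), so that its ratio of 15.9 has no upper limit. The ratio of Tug1 was 6.25 from 0 and 8 h alone, 3.11 from 4 and 8 h alone and 29.5 with TMM scaling, and it was not defined from 0 and 4 h or with DESeq2 scaling. A ratio over 1.5 was seen in 68.8% of the 5504 genes with a half-life in both genotypes. From 4 to 8 h alone Tug1 fell to 41.1% in WT cells and to 75.1% in R255K cells.

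**Figure D3:**
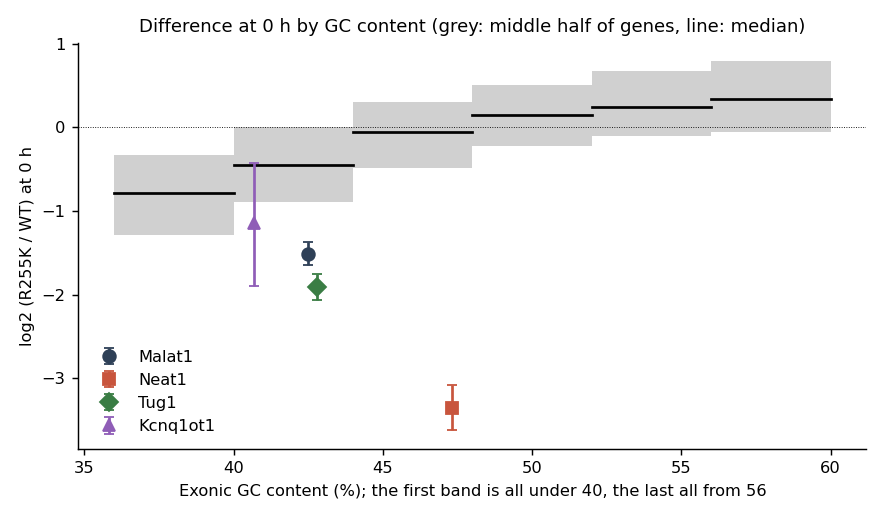
Log2 difference (R255K over WT) at 0 h of the 4 RNAs against exonic GC content in percent, with counting intervals, over the median (line) and middle 50% (grey) of all genes in 6 bands of GC content. The medians climb from −0.78 to 0.34, and Neat1, Tug1 and Malat1 lie below the grey area of their band while the interval of Kcnq1ot1 reaches into it.

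Among the 8 WT peaks on exons of the 4 RNAs, 2 had no overlapping R255K peak, and the same held for 47.9% of all 13870 WT exon peaks. The number was 4 of 8 when an R255K peak had to cover 50% of it and 1 of 6 among peaks of fold enrichment of at least 4, and 5 of the 8 peaks lie on 1 gene, Tug1. Among the 7 R255K peaks, 1 had no overlapping WT peak, against 13.1% of 8818. Each peak has a fold enrichment over the local background and a −log10 q from the peak caller, with no value per replicate, and the q also depends on the number of reads on the RNA.

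Malat1 carried 1 peak in each list, between 5800997 and 5801894 in WT cells, with its summit 1255 bases from the 5′ end in the long single-exon transcript. Its fold enrichment was 3.42 in WT and 4.29 in R255K cells, with −log10 q of 77.9 and 92.3. The R255K peak was wider, 1303 against 898 bases, and reached further towards the 5′ end. Of all WT exon peaks, 14.5% had a lower fold enrichment and 82.2% a lower −log10 q.

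All peaks of Neat1 lay within 2221 bases of the 5′ end of a gene of 20771 bases, in the part that its short isoform shares. The WT peak, 5843258 to 5844300, was enriched 7.53-fold over background, with a −log10 q of 87.6. The R255K peak inside it, 5843606 to 5844060, was enriched 5.04-fold with a −log10 q of 12.9 and had its summit 2 bases from the same GGAC. The R255K list held a second peak at 5845264 to 5845463, enriched 5.51-fold with a −log10 q of 9.43, whose summit lay 103 bases from the 5′ end and which no WT peak overlapped. Neat1 was thus among the RNAs with an R255K peak, while its level in the untreated R255K mRNA library was 10.2-fold lower. MeRIP-seq used total RNA, so the level behind the peaks may differ from the one counted here. The part of the lower level in the lower q was not tested.

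**Figure D4:**
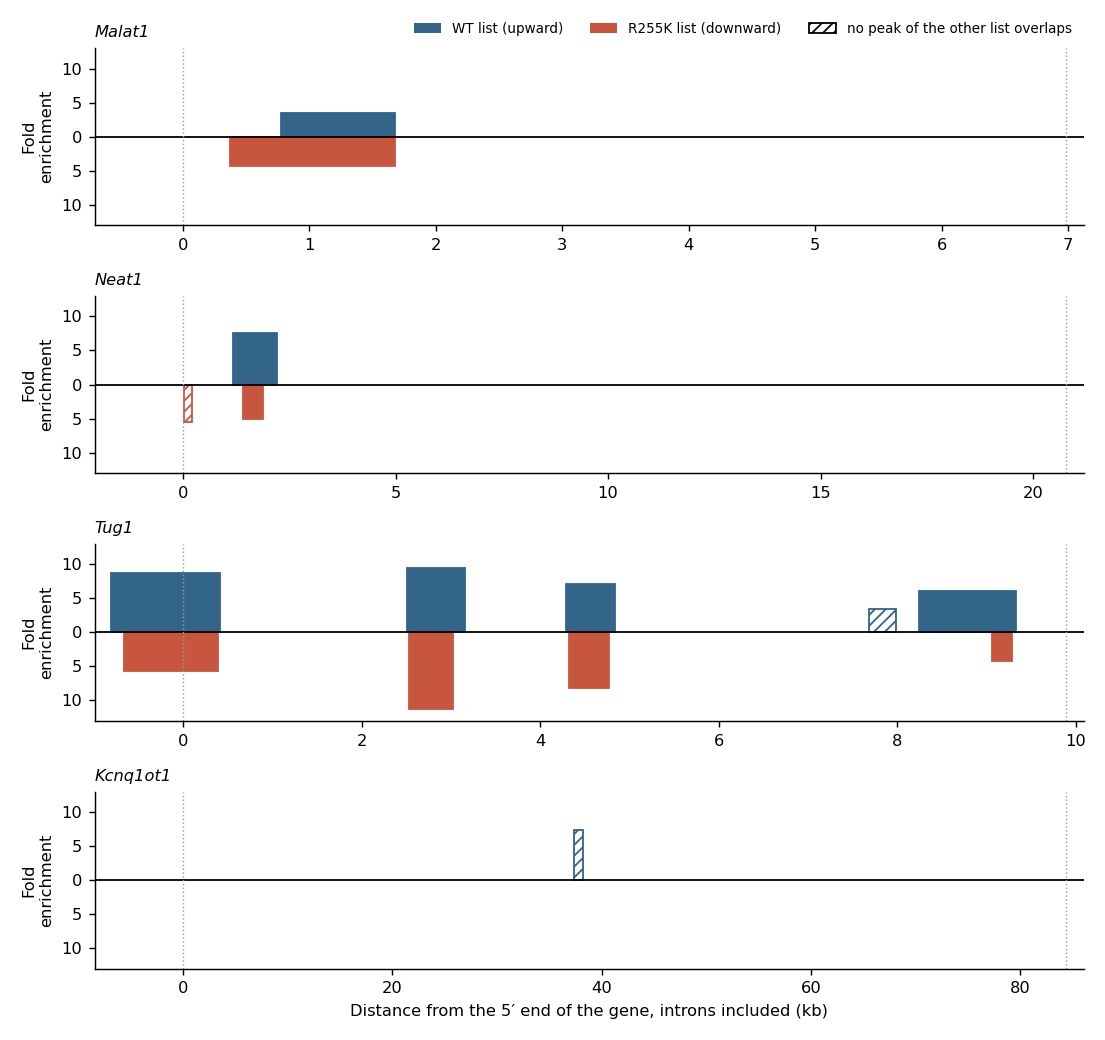
Peaks on exons of the 4 RNAs by distance from the 5′ end of the gene in kb, introns included, with bar height for fold enrichment in the WT list (upward, blue) and the R255K list (downward, red) and hatching where no peak of the other list overlaps. Tug1 carries 5 WT peaks along its length, those of Malat1 and Neat1 lie near the 5′ end, and the single Kcnq1ot1 peak is hatched.

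Tug1 carried 5 WT peaks, a number reached by 182 of the 9240 genes with a WT exon peak (1.97%). They covered 35.6% of its exonic bases in WT and 18.8% in R255K cells. Enrichment at 3646517 to 3647165 was 9.47-fold in WT and 11.2-fold in R255K cells, and at 3644837 to 3645380 it was 7.15-fold and 8.22-fold. The −log10 q of these central peaks was lower in R255K cells, 61.0 against 127 and 49.3 against 105, and their widths were 502 against 649 and 447 against 544 bases. The peak at 3649263 to 3650474, whose summit lies 18 bases from the 5′ end, was enriched 8.78-fold and 5.62-fold, but 653 of its bases lie on exons of Morc2a, so its RNA of origin is uncertain. The distal peak at 3640342 to 3641432 was enriched 6.06-fold in WT and 4.23-fold in R255K cells, with −log10 q of 57.7 and 5.50 and widths of 1091 and 222 bases. The peak at 3641688 to 3641993, enriched 3.38-fold with a −log10 q of 16.7, had no R255K partner. It was the weakest of the 5, and 68.5% of 1491 WT exon peaks within 1.2-fold of its −log10 q had no partner either.

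Kcnq1ot1 carried a WT peak at 143258299 to 143259222, enriched 7.40-fold with a −log10 q of 26.8. Its summit lay 37923 bases from the 5′ end of the interval over which Kcnq1ot1 was counted. No R255K peak lay on that interval. Among 1479 WT exon peaks of similar −log10 q, 51.7% had no R255K partner. Kcnq1ot1 had 24 counts in the untreated R255K mRNA library, which is not the total RNA used for MeRIP-seq. The part of this low level in the absence of a peak was not tested.

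Of the 6 kept WT peaks, 3 had a lower and 3 a higher fold enrichment in R255K cells, and 71.4% of all 7231 kept exon peaks had a lower one. GGAC was found within 100 bases of the summit in 4 of the 8 WT peaks and in 79.0% of all WT exon peaks on 1 strand, and in 5 of the 7 R255K peaks (71.4%) against 82.4%. AGAC was found in 6 of the 8 WT peaks against 68.8%, AAAC in 6 against 51.3% and GAAC in 8 against 61.0%. The motifs were searched on the RNA strand, and neighbouring motifs can share bases.

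Among the proteins that these RNAs work with, transcripts of paraspeckle proteins did not move as Neat1 did. Of 14 genes, 1 was more than 1.5-fold lower at 0 h and 0 were higher, with a median log2 difference of −0.22, beside 19.6% lower, 20.7% higher and a median of 0.06 over all genes. At 8 h, 3 of the 14 were lower and 0 were higher, with a median of −0.35, beside 10.6%, 47.7% and 0.51 over all genes. The lower ones at 8 h were Nono, Hnrnpk and Nudt21, at −0.62, −0.61 and −0.59. Nono and Sfpq, whose proteins bind Neat1 as a pair, had log2 differences of −0.03 and −0.33 at 0 h. Their levels at 0 h were 568 and 765 CPM in WT and 556 and 610 CPM in R255K cells, and Sfpq had −0.46 at 8 h. The gene that was lower was Matr3, a nuclear matrix protein, at −1.24 at 0 h but 0.08 at 4 h and 0.43 at 8 h. Of 10 nuclear speckle genes, 3 were lower at 0 h (Son, Pnn and Rbm25, at −0.80, −0.88 and −0.75) and 0 were higher, with a median of −0.20, beside the same shares of 19.6% and 20.7% over all genes. Son, Pnn and Rbm25 have 45.0%, 41.9% and 38.0% GC. The median at 0 h was −0.06 for genes of 44 to 48% GC, −0.45 for 40 to 44% and −0.78 under 40%. At 8 h, 3 of the 10 were more than 1.5-fold higher and 1 was lower, where 47.7% of all genes were higher and 10.6% lower. Of 6 genes for nuclear proteins that bind m6A or recruit its writer, 1 was lower at 0 h (Rbmx, at −0.92), with a median of −0.41, where 19.6% of all genes were lower. Rbmx had the fewest counts of the 6, with 110 in WT and 52 in R255K cells at 0 h. Ythdc1, the nuclear m6A reader, had −0.49 at 0 h and 0.28 at 8 h.

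In the Kcnq1 domain 7 of 12 genes passed the expression filter, of which 1 was lower and 3 were higher in R255K cells at 0 h, with a median of 0.58 (all genes: 19.6% lower, 20.7% higher, median 0.06). Phlda2, a growth-restraining gene that Kcnq1ot1 silences on the paternal allele, was counted 1469, 1835 and 2026 times in WT cells against 3246, 4256 and 5022 times in R255K cells, a log2 difference of 1.30 at 0 h. Cdkn1c, the cell cycle inhibitor p57 and also a target of this silencing, moved the other way, with 1855, 2074 and 2023 counts in WT cells against 804, 1211 and 1248 in R255K cells, a log2 difference of −1.05 at 0 h. Tssc4 and Ascl2, a trophoblast transcription factor gene, were higher as well, at 1.36 and 1.65. Genes of chromosome 7 from 140 Mb, which include this domain, had a median of 0.72 over 71 genes.

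Other long noncoding RNAs did not share 1 direction. Of 23 listed, 20 were in the table by the symbols used and 12 passed the filter; 5 of these were lower and 2 were higher at 0 h, with a median of −0.06, where 19.6% of all genes were lower and 20.7% higher. The lower ones were Mir17hg (−1.94), 2900097C17Rik (−1.31), Pvt1 (−1.08), Firre (−0.91) and Gas5 (−0.90). Lncenc1, an RNA of naive mESCs, was higher at 1.59. H19, the imprinted RNA beside Igf2, had 0 counts in the 3 WT libraries and 1603, 1787 and 2312 counts in the R255K libraries, at least 595-fold, 480-fold and 566-fold higher against a floor of 3 counts in the WT library. Meg3 and Rian, RNAs of the Dlk1 domain, had log2 differences of −0.14 and 0.12 at 0 h.

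**Figure D5:**
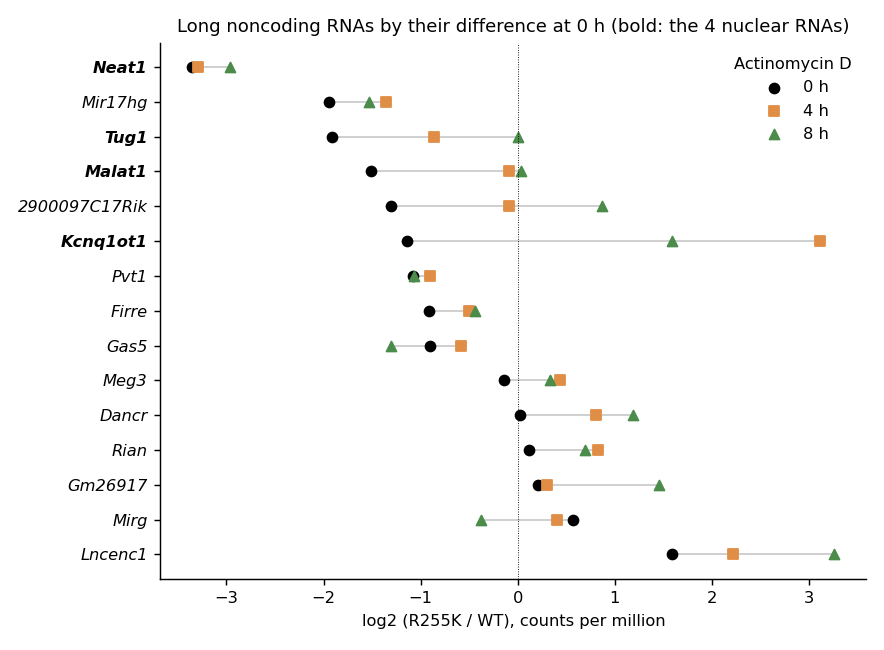
Log2 difference (R255K over WT, CPM) at 0 h (circles), 4 h (squares) and 8 h (triangles) of the 4 nuclear RNAs (bold) and of the 11 other long noncoding RNAs that passed the expression filter and had counts in every library. Neat1 is the lowest at each time, at −3.35, −3.29 and −2.96.

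The genes whose course was most like that of each RNA were ranked over all genes. By the root mean square difference of centred log2 levels over the 6 libraries, the nearest to Neat1 of 8631 genes were Mras, Lgals3 and Igsf21, at 0.50, 0.57 and 0.59, where the median gene was at 1.76. Mras, a small GTPase, had log2 differences of −2.50, −2.40 and −1.92 at 0, 4 and 8 h, and Lgals3, galectin-3, had −2.82, −3.45 and −3.58. Tug1 had much closer companions, Tcf4, Cep55 and Gm9770, at 0.14, 0.15 and 0.16, with a median of 0.91. The nearest to Malat1 was Sumo2 at 0.40, followed by Gm5641 and Ccdc50 at 0.48 and 0.54. Those of Kcnq1ot1 were Gm38393, Ddx3y and 4930447C04Rik at 0.52, 0.54 and 0.56. Among the 4 RNAs themselves the distances ran from 1.23 for Malat1 and Kcnq1ot1 to 2.46 for Neat1 and Kcnq1ot1. The median gene was at 1.10 from Malat1 and at 1.14 from Kcnq1ot1. Neat1 and Tug1 were 1.24 apart, which is under the median of 1.76 for Neat1 and over that of 0.91 for Tug1. Every other pair lay over the medians of both its RNAs.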

How the data were processed

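MeRIP-seq of WT and R255K mESCs (8 libraries) and RNA-seq after actinomycin D (6 libraries) were grouped by the labels. The authors removed rRNA reads with Bowtie2 2.2.6, mapped the rest with HISAT2 (mm10), and filtered to uniquely mapped reads with Picard 2.16.0 and SAMtools 0.1.09 (submitters' processing notes). The deposited gene counts are whole numbers of reads or fragments and were not normalized; counting tool, annotation and strand setting are not given in the sources used here. The authors called MeRIP-seq peaks with MACS2, and the deposited fold enrichment (a ratio over local background) and −log10 q are its values; how libraries were combined and their depth are unknown.

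CPM and FPKM were computed from the counts, summed counts and listed exon lengths. Ratios of 2 counts have exact conditional binomial intervals, levels exact Poisson intervals, and half-lives and retention delta-method intervals, all at 95% and of counting error only. The decay rate averaged the fall of the natural log level per h from 0 to 4 h and from 0 to 8 h, with counts under 3 set to 3, and was checked on simulated data. Called means past a 1.5-fold difference. Peaks shared at least 1 base to overlap, and exons come from the count tables. The GRCm38 reference and GENCODE annotation match mm10. The text names the 4 RNAs, their 3 most similar genes (at least 50 counts in every library), neighbours within 250 kb and genes of fixed lists; all were chosen with earlier results of these data known. R 4.3.3 and Python 3.11.15 with scipy 1.17.1, pandas 2.3.3, matplotlib 3.10.9 and numpy 2.4.6 were used, with edgeR 4.0.16 (TMM) and DESeq2 1.42.0 (size factors) only for other scalings, whose effect is given in the closing section.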

Additional observations from a re-analysis of the deposited data

Results flagged for a closer look

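Kcnq1ot1 moved in opposite directions in the genotypes after actinomycin D, falling in both treated WT libraries and rising in both treated R255K libraries. The size of the WT fall at 8 h depends on the scaling. Its log2 change from 0 h was −1.02 with summed counts, −0.50 with TMM and −0.32 with DESeq2 scaling. The last 2 are under 1.5-fold, so at 8 h the opposite directions rest on the scaling used. The change in R255K cells minus that in WT cells was 4.25 on the log2 scale (3.29 to 5.22) at 4 h and 2.73 (1.78 to 3.68) at 8 h. The intervals cover counting error only, and with 1 library per genotype and time the difference was not tested. The 0 h libraries, which both values share, held 59 counts in WT and 24 in R255K cells. No explanation was tested.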

How the results depend on the processing

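No paired analysis was possible because the peak lists hold no value per replicate and the RNA-seq has 1 library per group; for the same reason no replicate could be left out, and a library was left out only with its time point. The log2 difference at 0 h stayed within its counting interval for all 4 RNAs under TMM and DESeq2 scaling. Relative to genes of similar GC content it was −1.12 for Malat1 and −1.55 for Tug1, relative to chromosome 11 −2.49 for Tug1, and relative to genes within 250 kb (chosen after seeing the data) −1.67 for Malat1 and −2.49 for Tug1. With later libraries in place of 0 h (chosen after seeing the data) it was −0.09 at 4 h and 0.03 at 8 h for Malat1, −0.86 and 0.00 for Tug1, 3.11 and 1.59 for Kcnq1ot1 and −2.96 at 8 h for Neat1. TMM and DESeq2 scaling moved the median of all genes at 8 h from 0.51 to 0.08 and −0.09, and with them the values at 8 h were −0.40 and −0.57 for Malat1, −0.43 and −0.60 for Tug1, −3.40 and −3.57 for Neat1 and 1.15 and 0.98 for Kcnq1ot1. The log2 difference in retention was 1.16 (TMM), 1.05 (DESeq2) and 0.67 (similar GC content) for Malat1, 1.52, 1.42 and 1.10 for Tug1, −0.11 (DESeq2) and −0.08 (similar GC content) for Neat1 and 1.55 (similar GC content) for Kcnq1ot1. The half-life ratio of Neat1 ran from 0.858 to 1.54 and that of Tug1 from 3.11 to 29.5 where it was defined; for Tug1 it was not defined with DESeq2 scaling or from 0 and 4 h, and for Neat1 from 4 and 8 h. From 4 and 8 h alone Malat1 had a ratio of 1.30. WT peaks without a partner numbered 4 when 50% of the peak had to be covered and 1 of 6 at a fold enrichment of at least 4. The cause of these shifts was not tested. Shares of all genes (19.6%, 9.96% and 10.6% lower) became 23.7%, 13.1% and 12.6% with a mean FPKM of at least 0.1, and GGAC within 50 bases was found in the same number of WT peaks, 4. Depth limits Kcnq1ot1 most, with 19 to 204 counts per library.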
